A study of Homo sapiens with 2 samples.

Results

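C/EBPβ peaks were listed at 44 genes whose names mark them as parts of the mitochondrial respiratory chain or of ATP synthase, or as factors that help to build them. The genes were chosen by symbol. The rule reads no measured value, but it was proposed with results of the same list known. The deposited gene symbol had to start with NDUF (complex I), SDHA, SDHB, SDHC or SDHD (complex II), or UQCR (complex III). Other accepted starts were COX and a digit (complex IV) and ATP5 (ATP synthase), including ATP5 names given to a gene later. These genes accounted for 105 of the 17637 pairs of a peak and a transcript, and for 51 of the 7029 peaks. Protein-coding genes made up 43 of the 44, and the other was the antisense RNA gene NDUFV2-AS1.

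The pairs came from ChIP-seq, in which DNA bound to a protein is pulled down with an antibody and sequenced, in HL-60, a human leukaemia cell line of myeloblast type. All cells carried overexpressed C/EBPβ, a basic leucine zipper transcription factor of myeloid cells, and the design asks which genes the factor targets. There is 1 antibody library and 1 input library, and the list belongs to the former. Cells without overexpression were not analysed here. With 1 library of each kind there is no replicate check and no test between samples, and the intervals below cover counting error over genes only. Only DNA was sequenced, so neither expression of the genes nor the labelled cell type could be checked.

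The respiratory chain passes electrons from NADH and succinate to oxygen through a series of protein complexes in the inner mitochondrial membrane. Complexes I, III and IV pump protons as they do so, and ATP synthase, also called complex V, uses the returning protons to make ATP. Most subunits are encoded in the nucleus and imported, while a few hydrophobic core subunits are encoded by mitochondrial DNA; the latter were not analysed here. Nuclear respiratory genes are widely expressed, and the regulators NRF1, GABP (an ETS factor) and YY1 are known to act at many of their promoters.

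Promoter sequences at which a peak lay close to the start are shown first, to let the letters be read beside the peak positions. They are the 250 bases before a RefSeq start, written 5′ to 3′ in the direction of transcription, in build GRCh38.p14. The peaks are in build hg19, and the starts of the builds were not matched to each other, so the sequence is that of the gene's promoter and not of the peak. NDUFB6 (complex I) and COX8A (complex IV) had the closest peaks of their complexes, NDUFS4 (complex I) had a peak as close as 14 bases together with a loose C/EBP form, and NDUFB11 and ATP5MG were added after the matches had been seen because their sequences hold that form too. SDHB was also added later, for complex II. By the deposited starts, the nearest peaks of SDHB, ATP5MG and NDUFB11 lay wholly downstream, with their middles at 115, 240 and 283 bases. The letters printed for these genes come before the start, so by those starts they lie outside the peaks. The peaks of NDUFB6, NDUFS4 and COX8A contain the start, but none reaches across all 250 printed bases. The first NF-Y box of COX8A, at -235, lies beyond the upstream end of its peak by the same starts. Capitals mark matches, on either strand, to the loose C/EBP form TTGCNNAA, to the box bound by NF-Y, which reads CCAAT, and to the letters of ETS factors, which read CCGGAAG. None of the other motifs described further on, the GC box apart, was matched in these stretches. The windows are chr9:32573160-32573409 on the minus strand, chr5:53560389-53560638 on the plus strand, chr1:17054033-17054282 on the minus strand, chr11:63974370-63974619 on the plus strand, chrX:47144703-47144952 on the minus strand and chr11:118401356-118401605 on the plus strand.
NDUFB6: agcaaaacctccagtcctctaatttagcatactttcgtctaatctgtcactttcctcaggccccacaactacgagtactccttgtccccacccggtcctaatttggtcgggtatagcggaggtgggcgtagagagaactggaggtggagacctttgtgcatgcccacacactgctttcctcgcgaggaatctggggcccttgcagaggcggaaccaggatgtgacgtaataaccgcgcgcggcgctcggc
NDUFS4: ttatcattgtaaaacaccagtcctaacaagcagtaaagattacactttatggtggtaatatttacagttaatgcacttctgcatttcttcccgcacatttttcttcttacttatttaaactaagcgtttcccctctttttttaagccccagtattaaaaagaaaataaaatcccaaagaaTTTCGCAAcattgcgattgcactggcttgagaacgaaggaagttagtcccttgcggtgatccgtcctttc
SDHB: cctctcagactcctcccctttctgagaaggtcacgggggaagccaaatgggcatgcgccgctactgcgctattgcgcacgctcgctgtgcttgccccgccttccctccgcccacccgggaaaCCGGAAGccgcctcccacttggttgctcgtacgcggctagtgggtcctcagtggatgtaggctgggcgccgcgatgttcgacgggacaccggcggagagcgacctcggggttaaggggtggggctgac
COX8A: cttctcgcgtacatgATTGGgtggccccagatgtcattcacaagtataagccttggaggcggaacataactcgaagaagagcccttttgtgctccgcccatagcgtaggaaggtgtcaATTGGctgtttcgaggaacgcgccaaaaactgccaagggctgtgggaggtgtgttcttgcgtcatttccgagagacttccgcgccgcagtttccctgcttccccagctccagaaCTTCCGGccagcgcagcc
NDUFB11: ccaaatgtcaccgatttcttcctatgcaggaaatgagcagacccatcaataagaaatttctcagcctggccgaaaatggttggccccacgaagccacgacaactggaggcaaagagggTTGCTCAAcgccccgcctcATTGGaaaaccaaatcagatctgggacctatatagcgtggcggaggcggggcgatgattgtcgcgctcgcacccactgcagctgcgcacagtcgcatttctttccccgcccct
ATP5MG: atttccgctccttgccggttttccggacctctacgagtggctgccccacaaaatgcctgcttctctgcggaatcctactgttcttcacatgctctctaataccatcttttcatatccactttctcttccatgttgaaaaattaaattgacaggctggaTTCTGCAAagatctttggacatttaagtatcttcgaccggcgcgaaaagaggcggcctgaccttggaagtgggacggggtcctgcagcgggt
In NDUFS4 the C/EBP form reads TTTCGCAA, a match on the other strand. NDUFB11 holds it as TTGCTCAA, followed by an NF-Y box, and ATP5MG as TTCTGCAA, again on the other strand. COX8A has a pair of NF-Y boxes and an ETS match, SDHB has an ETS match, and NDUFB6 has none of these motifs in the stretch shown.

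A listed peak was present at 43 of the 110 nuclear protein-coding genes with such names (39.1%, exact 95% binomial interval 29.9 to 48.9). Over the whole background of 19388 protein-coding genes (autosomes and X) the share was 26.5%, or 5132 genes. The share of the respiratory genes therefore lay above the background share. Its interval covers counting error over genes of 1 library and is not a test against that share. The difference was not tested, since the genes had been proposed with results of the same list known. A gene counted as listed when the middle of a peak lay within 3000 bases of 1 of its annotated starts, which is the reach of the deposited list. At 1000 bases 37 of the 110 (33.6%) were listed, beside 20.9% of all protein-coding genes. At 500 bases 33 (30.0%) were, beside 17.1%.

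**Figure D1:**
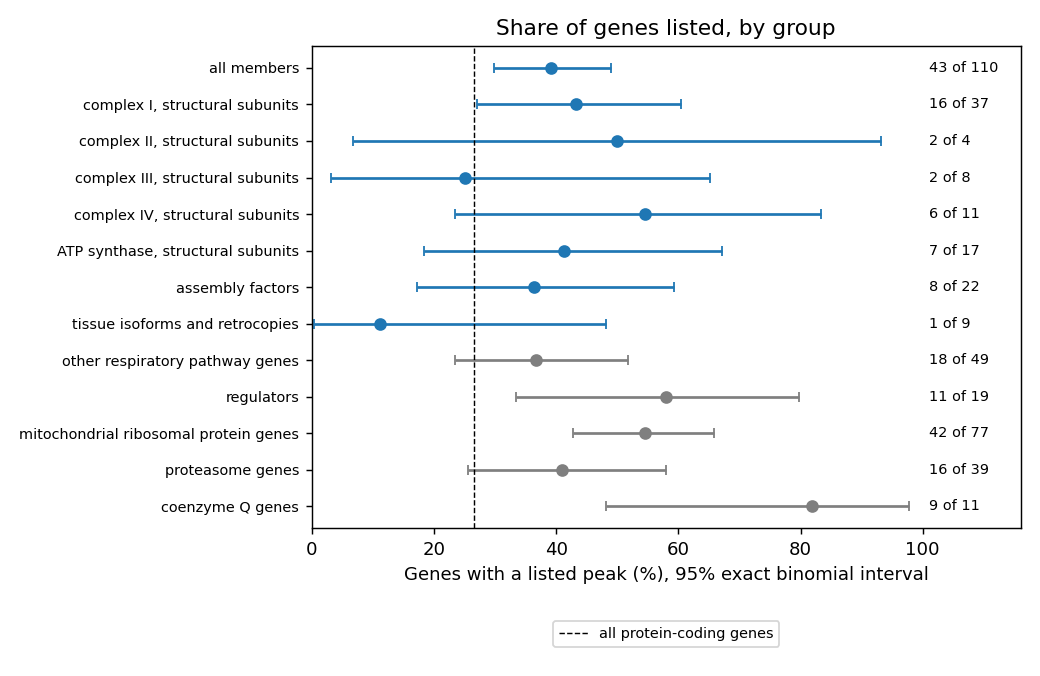
Share of genes with a listed C/EBPβ peak (x axis, percent) for the respiratory genes and their groups (blue) and for other gene lists (grey), with exact 95% binomial intervals over genes and the counts at the right. The dashed line marks the 26.5% of all protein-coding genes; complex III stood at 25.0% and tissue isoforms and retrocopies at 11.1%.

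Complex I, which takes electrons from NADH, had 16 of its 37 nuclear structural subunit genes listed (43.2%, interval 27.1 to 60.5). By symbol, 6 of 13 NDUFA subunits, NDUFAB1 included, and 5 of 11 NDUFB subunits had a peak. These symbols do not give the place of a subunit in the enzyme, and shares by place were not computed. Of the 7 nuclear core subunits, which carry the cofactors and catalyse the reaction, NDUFS3 and NDUFS7 were listed (28.6%), beside 14 of 30 accessory subunits (46.7%). The groups are small, with intervals of 3.67 to 71.0 and 28.3 to 65.7, which overlap widely.

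The complex I peak nearest to a start was at NDUFB6, an accessory subunit of the membrane arm, on chromosome 9 at 32573098 to 32573245 (hg19, as are all peak positions below), 11 bases from the start. NDUFS4, an accessory subunit of the peripheral arm that is often mutated in Leigh syndrome, had a wider peak on chromosome 5 at 52856275 to 52856626, 14 bases from its start. Both peaks contain the start itself. NDUFA11 followed at 49 bases, with a peak of 448 bases on chromosome 19 at 5903751 to 5904199. NDUFB5 lay at 60 bases (chromosome 3, 179322489 to 179322780). NDUFA13, also known as GRIM-19, lay at 70 bases (chromosome 19, 19626743 to 19627153). In each of these the peak covers the start as well.

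The remaining complex I peaks lay farther out. NDUFS3, a core subunit of the peripheral arm, had its peak 103 bases away, and NDUFAB1, the mitochondrial acyl carrier protein that also serves fatty acid synthesis, 130 bases away. NDUFS7, the core subunit next to the ubiquinone site, had the widest peak of all respiratory genes, 737 bases on chromosome 19 at 1383253 to 1383990, with its middle 261 bases upstream of the start. NDUFB11 and NDUFA1, both encoded on the X chromosome, had peaks at 283 and 410 bases, and NDUFS5 at 475 bases. NDUFC1 had a pair of peaks on chromosome 4 at 140222765 to 140222954 and 140223177 to 140223366, each 189 bases wide. They lay between its alternative starts, 471 and 434 bases from the nearest. Beyond 1000 bases were NDUFA12 (1090 bases), NDUFB10 (1412), NDUFB7 (1458) and NDUFA3 (2007).

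Among complex I assembly factors, which act during construction and leave the finished enzyme, 3 of 9 were listed. NDUFAF1 had a narrow peak 34 bases from its start (chromosome 15, 41694616 to 41694769). DMAC2, a membrane arm factor listed under its older name ATP5SL, had a peak 53 bases from a start (chromosome 19, 41945674 to 41945907). NDUFAF6 had a peak 258 bases away. The name ATP5SL put DMAC2 among the ATP5 symbols, although its product is not a subunit of ATP synthase. NDUFAF2, NDUFAF3, NDUFAF4, NDUFAF5, NDUFAF7 and NDUFAF8 had no listed peak.

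**Figure D2:**
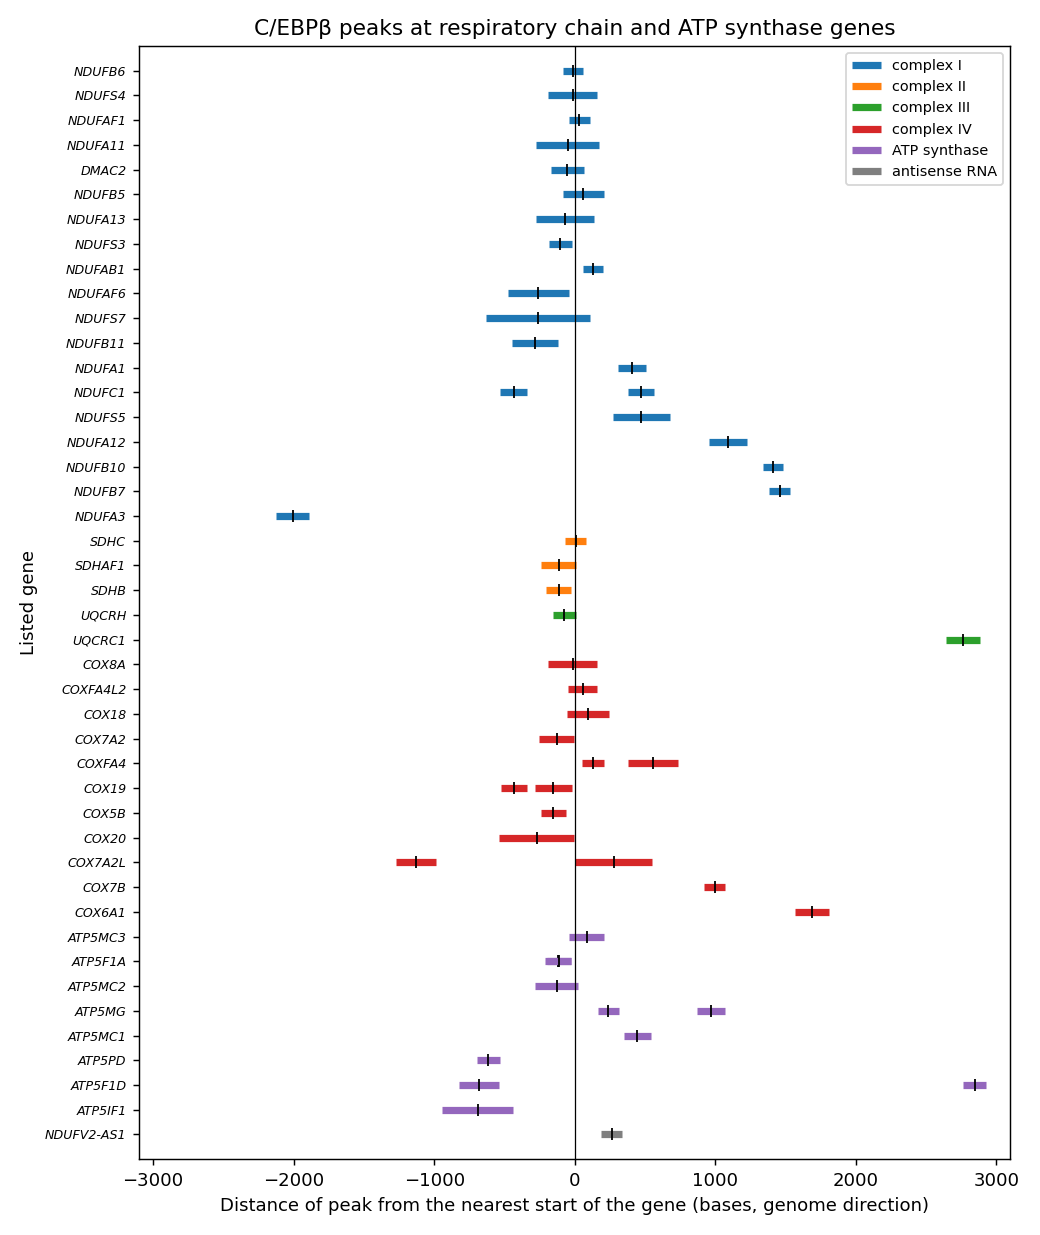
Position of each listed peak (coloured bar, drawn to its width, middle marked in black) relative to the nearest annotated start of the gene (x axis, bases in genome direction, start at 0), by gene and complex. Most bars lie within 500 bases of the start; the peaks of ATP5F1A belong to separate starts and overlie each other here, and UQCRC1 (2763 bases) and the outer ATP5F1D peak (2846 bases) lie near the edge of the window.

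Complex II, succinate dehydrogenase, links the citric acid cycle to the chain. It had 2 of its 4 subunit genes listed. SDHC, a membrane anchor, had the closest peak of all respiratory genes, on chromosome 1 at 161284094 to 161284249, with its middle 6 bases from the start that all 6 of its listed transcripts share. SDHB, the iron-sulfur subunit, had a peak 115 bases downstream of its start. SDHAF1, which helps to insert the iron-sulfur clusters into SDHB, also had a peak at 115 bases, upstream of its start. The catalytic subunit gene SDHA, the anchor gene SDHD and the factors SDHAF2 and SDHAF4 had no listed peak. SDHAF3, listed under the older name ACN9 and so outside the symbol rule, had a peak 990 bases from its start.

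Complex III, which passes electrons from ubiquinol to cytochrome c, had 2 of 8 structural genes listed (25.0%, interval 3.19 to 65.1), close to the background share. UQCRH, the hinge protein, had a peak 74 bases upstream of its start on chromosome 1 at 46769130 to 46769290. UQCRC1, a core protein, had a peak 2763 bases upstream, near the edge of the window. No listed peak was found at UQCRFS1, the Rieske iron-sulfur protein, at UQCRC2, UQCRB, UQCRQ, UQCR10 or UQCR11, or at UQCRHL, a retrocopy of UQCRH. Within 1000 bases, UQCRH was the single structural gene of complex III left (12.5%).

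Complex IV, cytochrome c oxidase, reduces oxygen to water. Of its 11 widely expressed nuclear subunit genes, 6 were listed (54.5%, interval 23.4 to 83.3). COX8A had a peak of 352 bases over its start, 14 bases from it, on chromosome 11 at 63741888 to 63742240. COX7A2 and COX5B had peaks at 127 and 153 bases. COXFA4, deposited as NDUFA4 because its product was once counted in complex I, had a pair of peaks on chromosome 7, at 10979863 to 10980025 and 10980193 to 10980550, at 131 and 558 bases and both upstream. COX7B and COX6A1 had peaks 995 and 1689 bases downstream of their starts. COX4I1, COX5A, COX6B1, COX6C and COX7C had none listed.

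Of the tissue-restricted subunit isoforms and retrocopies, 1 of 9 was listed (11.1%, interval 0.281 to 48.2), beside 33 of 77 structural subunit genes (42.9%). The member listed was COXFA4L2, deposited as NDUFA4L2, a hypoxia-induced relative of COXFA4, with a peak 56 bases upstream of its start on chromosome 12 at 57634427 to 57634635. COX4I2, COX6A2, COX6B2, COX7A1, COX7B2 and COX8C, the forms of lung, muscle, testis and similar tissues, were not listed, nor were the copies UQCRHL and ATP5MGL. The interval includes both the background share and the share of the structural subunit genes. ATP5MGL was put in this group after the data had been seen.

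Of the 10 factors that assemble complex IV or join it to other complexes, 4 were listed (40.0%). COX18, which inserts part of a mitochondrially encoded subunit into the membrane, had a peak 93 bases away on chromosome 4 at 73935419 to 73935720. COX19, a copper delivery factor, had a pair of peaks on chromosome 7 at 1014712 to 1014894 and 1014953 to 1015216, at 432 and 151 bases, both downstream of the start. COX20, a chaperone, had a peak of 535 bases on chromosome 1 at 244998102 to 244998637, 269 bases upstream. COX7A2L, which joins complexes III and IV into supercomplexes, is on chromosome 2. Its peak at 42587086 to 42587366 lay 1130 bases downstream of the start, and that at 42588361 to 42588906, 545 bases wide, lay 277 bases upstream. COX10, COX11, COX14, COX15, COX16 and COX17 were not listed.

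ATP synthase had 7 of 17 structural subunit genes listed (41.2%, interval 18.4 to 67.1). All 3 genes for subunit c, which forms the rotating membrane ring, had a peak. ATP5MC1, ATP5MC2 and ATP5MC3 are on separate chromosomes and encode the same mature protein with different import signals. ATP5MC3 had its peak on chromosome 2 at 176046452 to 176046702, 87 bases from a start, ATP5MC2 at 127 bases and ATP5MC1 at 446 bases. With 3 genes the exact interval runs from 29.2 to 100%, and the set was singled out after its values were seen.

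In the catalytic F1 head, 2 of 5 genes were listed. ATP5F1A, which encodes subunit α, is on chromosome 18 and had 1 peak at 43678108 to 43678292 and 1 at 43684003 to 43684171. Each belonged to a different annotated start, at 43678319 and 43684199, and lay 119 and 112 bases downstream of it. ATP5F1D, subunit δ on chromosome 19, had a peak at 1240927 to 1241209, 680 bases away, and another at 1244513 to 1244676, 2846 bases away. ATP5F1B, which encodes the catalytic β subunit, and ATP5F1C and ATP5F1E had none listed. In the stalk and membrane part, ATP5PD had a peak at 616 bases, and ATP5MG on chromosome 11 had a peak at 118272270 to 118272416, 240 bases downstream of its start, and another at 118272973 to 118273173, 970 bases downstream. ATP5PB, ATP5PF, ATP5PO, ATP5ME, ATP5MF, ATP5MJ and ATP5MK had none listed. ATP5IF1, the inhibitor that blocks ATP hydrolysis when the membrane potential falls, was listed under its older name ATPIF1. Its peak of 505 bases was on chromosome 1 at 28561659 to 28562164, 690 bases upstream. DMAC2L, once named ATP5S, was not listed.

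Across the 43 listed coding genes, the nearest peak lay a median of 151 bases from a start, beside 265 bases for all listed protein-coding genes. It was within 100 bases at 13 genes (30.2%, beside 25.3%) and within 500 bases at 33 (76.7%, beside 64.6%). The start itself fell inside a peak at 16 (37.2%, beside 31.2%). Medians were 258 bases for complex I, 151 for complex IV and 343 for ATP synthase. Of the 37 genes whose direction is in the RefSeq promoter table, the nearest peak was upstream at 20 and downstream at 17. More than 1 peak was listed at 7 genes (16.3%), beside 30.2% of all listed protein-coding genes. None of these shares was tested.

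Peaks at the coding genes had a median width of 233.5 bases, and 229 bases was the median over all 7029 peaks. The 10th and 90th percentiles were 151.5 and 431.8 bases, beside 150 and 440. The 5 widest were at NDUFS7, COX7A2L, COX20, ATP5IF1 and NDUFA11. The deposited score follows from the distance alone, so the list holds no peak height and width is its only other measure of a peak.

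**Figure D3:**
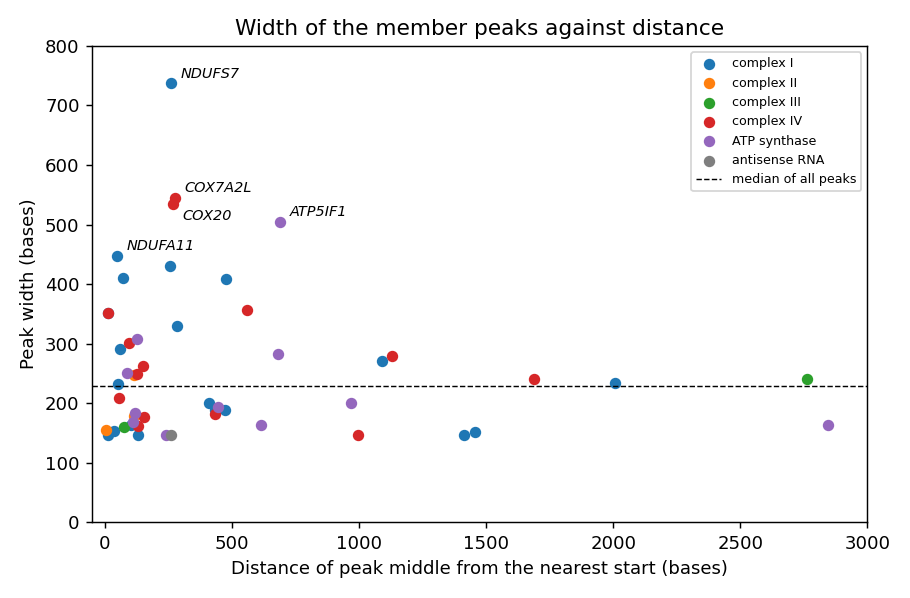
Width of each peak at a respiratory gene (y axis, bases) against the distance of its middle from the nearest start (x axis, bases), coloured by complex. Points lie on both sides of the dashed line at 229 bases, the median of all peaks, with NDUFS7 at 737 bases the widest.

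Several respiratory genes shared their peak with a neighbour. The nearest peak was also paired with another gene at 13 of 43 (30.2%, beside 30.7% of all listed protein-coding genes) and with another protein-coding gene at 12 (27.9%, beside 21.9%). Complex I accounted for 8 of the 12, out of its 19 listed genes (42.1%), and complex IV for 0 of its 11 listed genes. At 8 of the 12 the neighbour was transcribed in the opposite, divergent direction, with starts up to 3059 bases apart (ATP5IF1 and DNAJC8). The divergent share over all listed protein-coding genes was not computed. At NDUFA1 and NDUFC1 the opposite genes, RNF113A and NAA15, overlapped them by the starts nearest to the peak, and for the other 2 a direction is not in the promoter table. NDUFB11 and RBM10, an RNA-binding splicing regulator, start 7 bases apart, and their common peak was 283 bases from one start and 290 from the other. NDUFS3 and KBTBD4 start 40 bases apart, with the peak 103 and 63 bases away, so the peak lay nearer to KBTBD4. ATP5F1A and HAUS1, a mitotic spindle gene, start 98 bases apart. NDUFB5 shared its peak with MRPL47, a mitochondrial ribosomal protein gene whose start was 200 bases from the middle. UQCRH shared its peak with LRRC41 (172 bases). NDUFC1 shared both its peaks with NAA15, whose start was 596 bases from the nearest peak of NDUFC1 and 184 bases from the other. In such pairs the peak cannot be given to either gene. The peaks of NDUFA1 and NDUFA3 also lay nearer to a neighbour, RNF113A (352 bases, against 410) and OSCAR (1842 bases, against 2007). When a peak counted for its closest start alone, 40 of the 110 were listed (36.4%, beside 23.4% of all protein-coding genes). Structural genes of complex I then stood at 13 of 37 (35.1%), in place of 16 (43.2%).

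NDUFV2-AS1, the noncoding member, is named for lying antisense to NDUFV2, a core gene of complex I that had no listed peak itself. Its peak was 262 bases from its start on chromosome 18, at 9136907 to 9137053, and 230 bases from the start of ANKRD12. Which of the transcripts the peak belongs to was not tested.

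Motif letters were counted in RefSeq promoter windows of 300 bases, from 250 before to 50 after a start, on both strands. Windows were found for 91 of the 110 genes, some with several. Of 40 windows at the 28 respiratory genes with a peak within 500 bases, 3 (7.5%) held the loose C/EBP form TTGCNNAA, and these were the NDUFS4, NDUFB11 and ATP5MG windows shown above. The form was present in 10.5% of all 35116 windows, which include noncoding genes, and in 8.7% of the windows of protein-coding genes. It was in 11.3% of the 4225 windows of protein-coding genes with a peak as near. The full palindrome TTGCGCAA, which lies within the loose form, and the C/EBP-ATF composite TGATGCAA were in 0 of the 40, and in 0.151% and 0.866% of all windows.

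The ETS letters CCGGAAG were in 10 of the 40 windows (25.0%) and in 18 of 65 windows at respiratory genes without a listed peak (27.7%), beside 10.3% of all windows. The palindrome of NRF1, 10 bases long, was in 2 (5.0%) and 6 (9.23%), beside 1.24%, and the YY1 motif AAGATGGCG in 3 (7.5%) and 9 (13.8%), beside 1.75%. Both NRF1 windows belong to COX18, with 1 match in each, so they count 1 gene. Among genes without a listed peak, ATP5PF and NDUFAF8 each had YY1 and ETS matches in more than 1 window. Those window counts are therefore also larger than the counts of genes. The CRE motif TGACGTCA was in 2 (5.0%) and 3 (4.62%), beside 1.85%. The NF-Y box was in 9 (22.5%) and 26 (40.0%), beside 34.6%, and the GC box GGGCGG in 23 (57.5%) and 40 (61.5%), beside 45.0%. Against the 4225 windows of protein-coding genes with a peak within 500 bases the ETS, NRF1, YY1 and CRE gaps were smaller and that of the GC box turned round. Those windows held the ETS letters in 19.1%, the NRF1 palindrome in 1.59%, the YY1 motif in 3.93%, the CRE motif in 3.46%, the NF-Y box in 34.4% and the GC box in 64.6%, which is above the 57.5% of the 40. Over all windows of protein-coding genes, the ETS letters were in 12.9%, the NRF1 palindrome in 1.51% and the YY1 motif in 2.46%. There the CRE motif was in 2.29%, the NF-Y box in 34.7% and the GC box in 56.7%. None of these counts was tested, and windows of a gene can overlap. A match shows letters in a window and not a bound site.

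**Figure D4:**
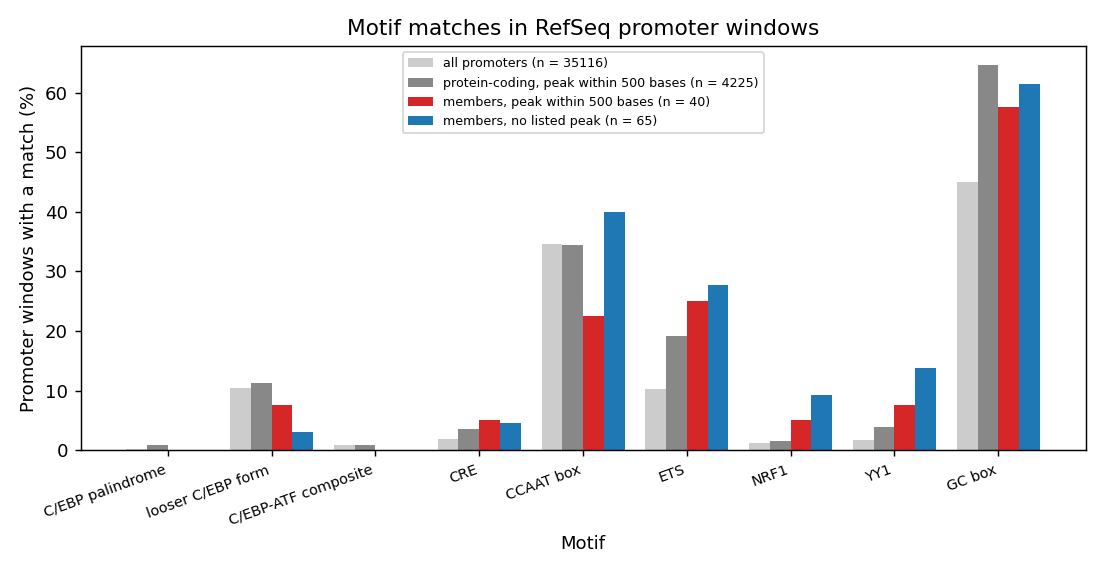
Share of RefSeq promoter windows with at least 1 match to each motif (y axis, percent), for all windows, for protein-coding genes with a peak within 500 bases, and for respiratory genes with such a peak or without a listed peak (n is the number of windows). The loose C/EBP form stands at 7.5% in the 40 respiratory windows with a peak and at 3.08% in the 65 without.

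Of 49 other genes of the pathway, chosen by name and outside the symbol rule, 18 were listed (36.7%, interval 23.4 to 51.7). They included CYCS, which encodes cytochrome c (135 bases), the complex IV factors SURF1 (287), SCO2 (52), COA5 (70), COA6 (41) and TACO1 (28), and the complex III factor BCS1L (92). The complex I factors ECSIT (168), NUBPL (192) and TIMMDC1 (265) and the flavoprotein oxidoreductase ETFDH (68) were also among them. CYC1, the cytochrome subunit of complex III, was not. The nearest peak lay within 500 bases at 14 of the 18, and beyond 1000 bases at 3: AIFM1 (1301), OXA1L (2632) and TTC19 (2895). Of 19 regulators of respiratory genes and of the mitochondrial genome, 11 were listed (57.9%, interval 33.5 to 79.7). NRF1 had a peak 36 bases from a start, the GABP subunit genes GABPB1 and GABPB2 at 51 and 30 bases, YY1 at 960 bases and ESRRA at 275 bases. GABPA, TFAM, POLRMT and PPARGC1A had none listed.

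Beside other housekeeping lists taken by symbol, the respiratory genes, with assembly factors and tissue isoforms included, had the lowest of the 4 shares (39.1%). That rank depends on the make-up of the set. Structural subunit genes alone were listed at 33 of 77 (42.9%, interval 31.6 to 54.6), above the proteasome genes. Mitochondrial ribosomal protein genes were listed at 42 of 77 (54.5%, interval 42.8 to 65.9), proteasome genes (symbols PSMA to PSMD and a number) at 16 of 39 (41.0%, interval 25.6 to 57.9) and coenzyme Q (COQ) genes at 9 of 11 (81.8%, interval 48.2 to 97.7). The interval of the coenzyme Q genes begins just below the upper end of that of the respiratory genes, and no difference between the lists was tested. Median distances of the nearest peak were 179, 128 and 135 bases.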

How the data were processed

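The series has 2 libraries from HL-60 cells overexpressing C/EBPβ, and the file analysed belongs to the antibody library. Per the submitters' processing notes, BWA 0.7.10, SAMtools, MACS2 2.1.1 and build hg19 were used, with no role given. The sources used here name neither the peak threshold nor any use of the input. The deposited list, per the file header, gives peak start and end, a transcript, a symbol, a distance and a score. The deposited score falls with distance by a fixed function (largest deviation 5e-13) and holds no peak height; read depth is unknown. Positions are printed as deposited, without knowing if they count from 0 or 1. Distance is measured between start and peak middle: 3742 of 3744 transcripts with several peaks gave the same start within 2 bases.

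Transcripts were matched to RefSeq genes of GRCh38.p14 for names only: of 12532 transcripts, 12330 matched by accession, 130 by current symbol, 55 by a former symbol and 17 by none, which kept the symbol given. All 91 member transcripts matched by accession. Readthrough genes and mitochondrially encoded genes were left out of the 110. Transcription direction was taken from the promoter table on the assumption that it is the same in both builds. Neither exons nor introns under the peaks were determined. Shares have exact (Clopper-Pearson) 95% intervals from SciPy 1.17.1. The matching and motif search were tested on simulated data. Members and lists were chosen with earlier results of these data known. The naming rule took all listed members, with positions for those within 100 bases of a start, with several peaks, or among the 5 widest. Alternatives changed the distance limit, the pairing, the width, the names and the gene sets. Core complex I genes with no listed peak are not all reported by name here.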

Additional observations from a re-analysis of the deposited data

How the results depend on the processing

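Of 47 alternatives over 10 results, 39 gave values within the interval of the main value. This count is no measure of stability, since intervals of small groups hold most values (6.76 to 93.2 for structural genes of complex II). A changed background also leaves the share of respiratory genes at 39.1% by construction. With peaks wider than the median only, the share listed fell to 22.7% for all respiratory genes (25 of 110, beside 15.4% of all protein-coding genes), and to 24.3% for structural genes of complex I, 0.0% of complex II and 17.6% of ATP synthase, and 0.0% for tissue isoforms; fewer peaks enter this setting by construction. With deposited symbols read as current names, the share was 29.1% for all respiratory genes (beside 24.6%), 0.0% for structural ATP synthase genes and 0.0% for tissue isoforms. That setting loses the 11 listed genes deposited under older names, so it measures renaming. Counting SDHAF3 as a member, a choice made after seeing the data, gave 39.6%. The median distance ranged from 141 to 269 bases (main interval 112 to 283). No paired analysis was possible because each group has 1 library and no test was run. Named pseudogenes exist for 22 of 43 listed (51.2%) and 36 of 67 unlisted (53.7%) respiratory genes. Whether any reads mapped to such copies was not tested. Absence from the list does not show absence of binding, since depth and threshold are unknown.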
